A study of Mus musculus with 12 samples.

Results

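Lipid droplet and triglyceride turnover genes, 10 in all, which store, release and rebuild triglyceride, were followed across 12 mouse hearts. The members were named by symbol: the perilipins Plin2, Plin3, Plin4 and Plin5, the lipases Pnpla2, Lipe and Mgll, the lipase inhibitor G0s2, and the acyltransferases Dgat1 and Dgat2. They are 10 of the 33641 gene symbols in the table, obtained by summing transcript rows that share a symbol. All 10 passed the filter on low values, which kept the 13158 genes with at least 1 TPM (transcript abundance scaled to the same total in each library) in at least 3 libraries.

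The RNA was extracted from heart muscle (myocardium) of wild-type males of the C57BL/6 strain. These had undergone a sham operation or surgery to produce a myocardial infarction (MI), and injections began 2 weeks later, at about 10 weeks of age. Prednisone, which acts through the glucocorticoid receptor, was injected into the peritoneum at 1 mg/kg, at lights-on, once in each of 6 weeks, and control mice were injected with vehicle. Hearts were collected 24 hours past the final dose, near 16 weeks of age. Each of the 4 combinations held 3 mice. The groups are called sham vehicle, sham prednisone, MI vehicle and MI prednisone, and values are listed in the order of replicates 1, 2 and 3. Which region of the infarcted heart was sampled is not given in the sources used here.

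As background, heart muscle burns fatty acids as its main fuel and passes part of them through small lipid droplets before oxidation. Perilipins coat the droplet and control the access of lipases. ATGL, the product of Pnpla2, removes the first fatty acid from triglyceride, hormone-sensitive lipase (Lipe) the second and monoacylglycerol lipase (Mgll) the last, while G0s2 binds and inhibits ATGL. Dgat1 and Dgat2 are unrelated enzymes that add the final fatty acid to diacylglycerol to make triglyceride.

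The deposited values hold no counts, so the depth of each library is unknown and the precision rests on 3 mice per group. The 7 cardiomyocyte markers, Myh6 and Tnnt2 among them, summed to between 22258 and 35174 TPM, and none was at 0 in any library. MI vehicle replicate 3 stood apart, with 14307 genes at 1 TPM or more against 11690 to 12772 in the other 11 libraries and a median-ratio size factor of 1.65 against 0.87 to 1.14. Mitochondrially encoded genes held 21.6% to 42.0% of TPM. The median gene moved by 0.39 on the log2 scale between sham and MI under vehicle and by -0.41 between vehicle and prednisone in MI. Changes below are differences of log2(TPM + 1) from a limma fit over all 12 libraries, with Benjamini-Hochberg adjustment over all 13158 genes and calls at an adjusted p under 0.05.

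Pnpla2 was the most abundant member by mean TPM in all 4 groups, Dgat2 was next and Dgat1 was the lowest. TPM is scaled by transcript length, so levels can be set side by side between genes. They sum all transcript rows of a gene, coding or not, and the order need not hold for coding rows alone. Over the 12 libraries Pnpla2-201, annotated for nonsense-mediated decay, held 52.8% of Pnpla2 TPM (mean 97.3 TPM). The coding row Dgat2-201 held 99.0% of Dgat2 (mean 133.5 TPM). Plin2-208, a row with no coding sequence, held 34.0% of Plin2. In sham vehicle hearts the mean level was 187 ± 16.5 TPM for Pnpla2, 151 ± 6.31 TPM for Dgat2 and 10.2 ± 1.80 TPM for Dgat1 (SD, n = 3). The other 7 members lay between Lipe at 34.0 ± 12.6 TPM and Plin5 at 58.2 ± 1.36 TPM in that group. From G0s2 down to Plin4 (50.8 to 40.5 TPM) neighbouring means differed by less than the larger of their SDs. The coefficient of variation of TPM as deposited over the 12 libraries was lowest for Plin3, at 12.1%, and highest for Lipe, at 61.5%. The panels of TPM by library show these levels for each member.

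**Figure D1:**
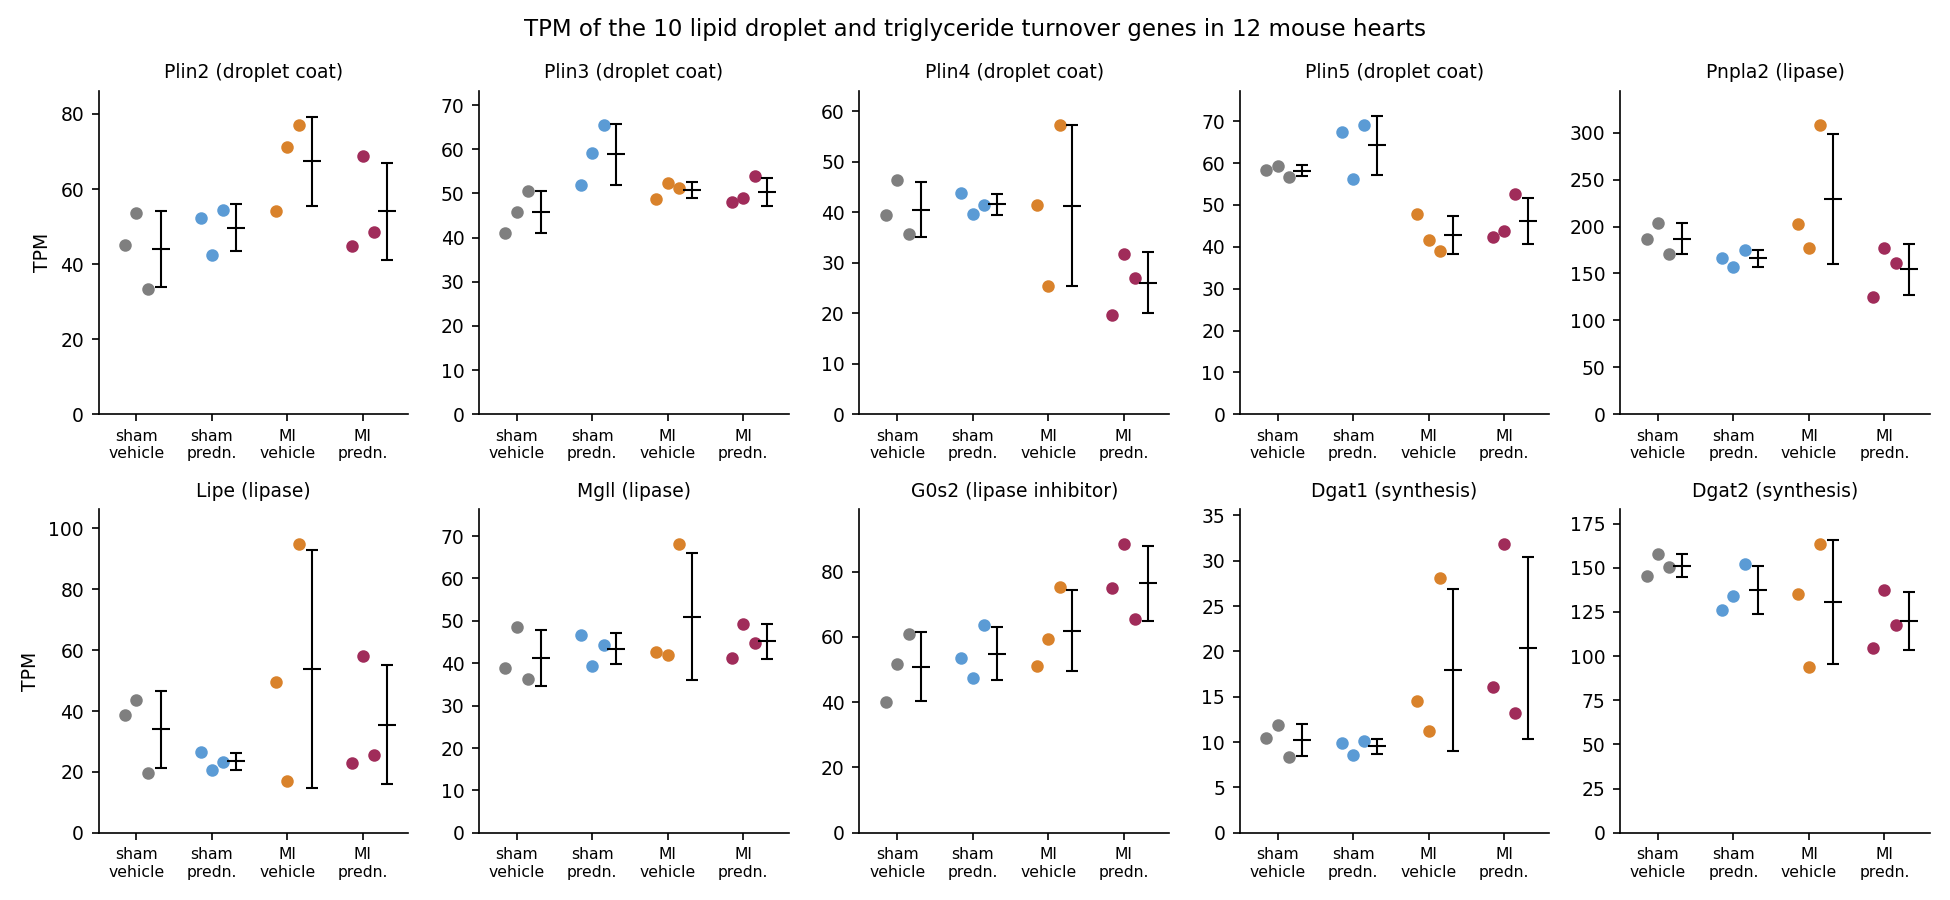
TPM of each of the 10 members (vertical axes, each starting at 0) in the 4 groups (horizontal axes); points are mice in the order of replicates 1 to 3, and black bars are the group mean ± SD. All 6 MI hearts lie below all 6 sham hearts for Plin5, while Lipe and Dgat1 have their widest spread in the MI groups.

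Few members passed the test. Under vehicle 1 of the 10 members, Plin5, was called lower in MI than in sham, against 16.0% of all genes (15.1% higher and 0.904% lower). Under prednisone 1 of 10, again Plin5, was called lower in MI, against 16.8% (2.73% higher and 14.1% lower). With prednisone in MI 1 of 10, Pnpla2, was called lower, against 37.4% of all genes (2.50% higher and 34.9% lower). In sham hearts prednisone called 0 of 10, against 0.114% of all genes, with 1 member, Plin3, at an unadjusted p under 0.05. For the difference between the prednisone effects in MI and in sham 0 of 10 were called, against 21.3% (20.7% lower), with Plin3 again at an unadjusted p under 0.05 (its value of -0.37 turned to 0.17 after median-ratio rescaling). In none of the 5 comparisons was the share of members called above that of all genes.

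The members' median change was 0.26 between sham and MI under vehicle, against 0.39 over all genes, and -0.12 with prednisone in MI, against -0.41. In that last comparison 7 members were below 0 and 8 lay above the median gene. Between sham and MI under vehicle 1 of 10 members was higher without overlap (Plin2), against 40.8% of all genes, and 1 was lower (Plin5), against 4.17%. Under prednisone 2 were higher (G0s2 and Dgat1), against 12.9%, and 2 lower (Plin4 and Plin5), against 32.2%. No member separated the 2 MI groups, against 46.2% of all genes, and 1 of 10 (Plin3) was higher without overlap in prednisone than in vehicle sham hearts, against 15.6%.

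**Figure D2:**
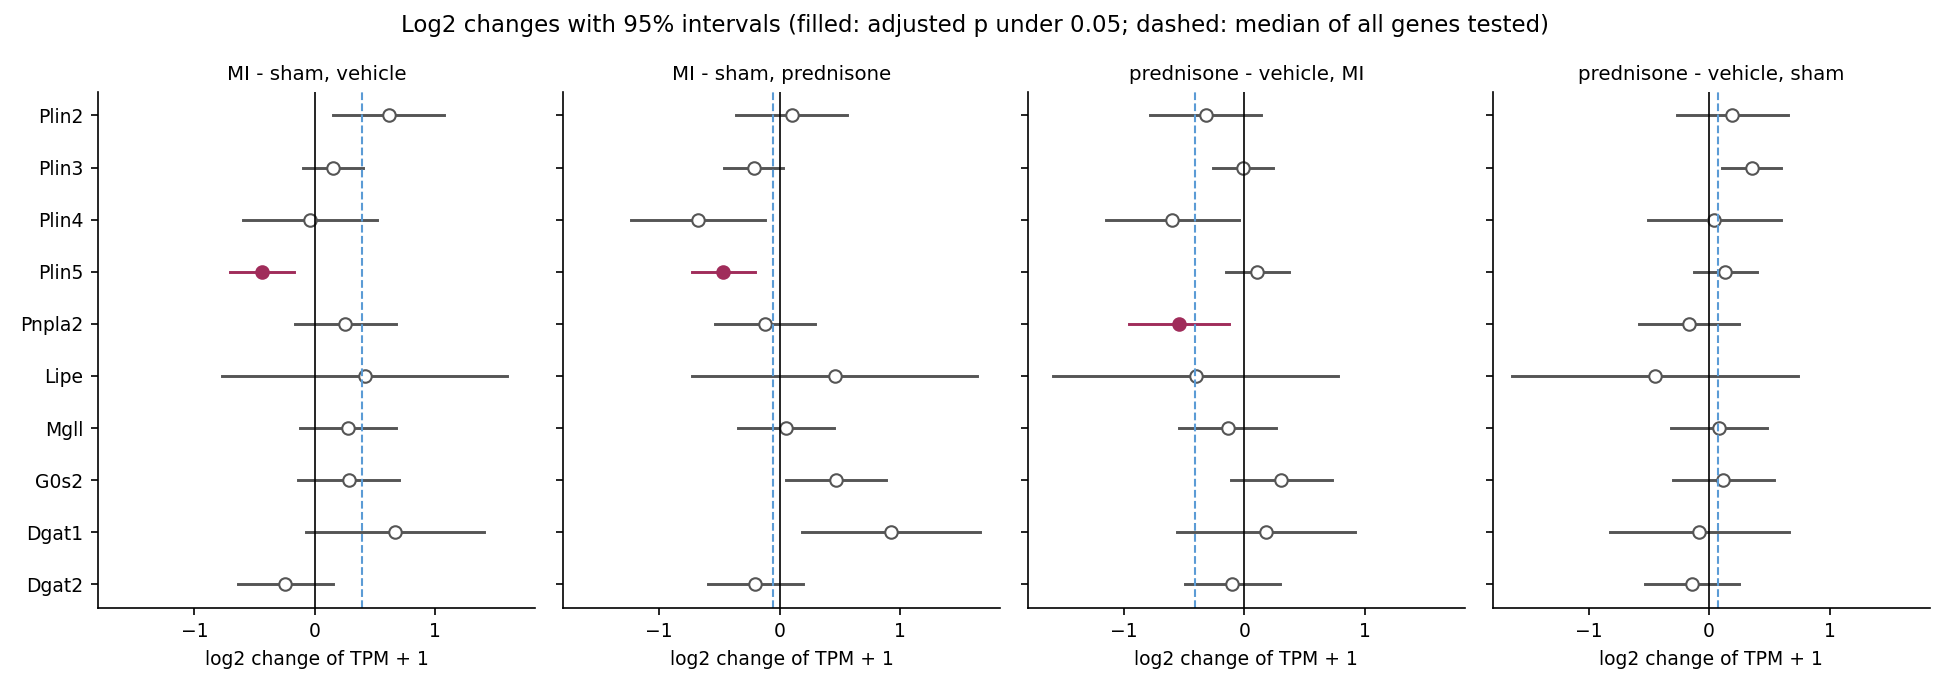
Log2 change of TPM + 1 (horizontal axes) for each member (rows) in 4 comparisons, with 95% intervals from limma; filled points have an adjusted p under 0.05 and dashed lines are the median change of all 13158 genes. Plin5 is filled in both infarction panels and Pnpla2 in the panel of prednisone in MI, where the dashed line lies at -0.41; Lipe has the widest intervals.

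Among the droplet coat genes, Plin5 was lower in infarcted hearts with vehicle and with prednisone. Plin5 encodes the perilipin of oxidative tissues, which tethers droplets to mitochondria, and lies on chromosome 17 from 56111601 to 56117596 (mm10, minus strand). Its level was 58.4, 59.4 and 56.7 TPM in sham vehicle and 67.4, 56.2 and 69.1 TPM in sham prednisone hearts. It was 47.8, 41.6 and 39.0 TPM in MI vehicle and 42.4, 43.8 and 52.5 TPM in MI prednisone hearts. No MI heart reached the lowest sham heart, and Plin5 was the only member of which this held in either direction. Among all 13158 genes, 1.87% had all 6 MI libraries below all 6 sham libraries and 3.69% had them above. In bulk tissue, fewer cells of a type and less RNA per cell cannot be told apart. The cardiomyocyte marker sum was 29552 to 35174 TPM in sham, 22258 to 28770 TPM in MI vehicle and 29614 to 31502 TPM in MI prednisone hearts, and 5 fibroblast markers summed to 340 to 465, 788 to 954 and 271 to 458 TPM in the same order. The cardiomyocyte markers differed among themselves. Ryr2 was at 23.0 to 42.6 TPM in MI prednisone and 62.6 to 92.5 TPM in sham hearts. Pln and Myh6 also lay below every sham heart there, while Tnnt2, Actc1, Tnni3 and Mb overlapped the sham range. What part these cell types had in the Plin5 difference was not tested.

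Plin5 fell by 0.44 on the log2 scale (SE 0.12, limma adjusted p = 0.037) between sham and MI under vehicle, a fold of 0.738. Under prednisone it fell by 0.47 (SE 0.12, limma adjusted p = 0.023), a fold of 0.724. As deposited, the 2 infarction changes differed by -0.03 (95% interval -0.40 to 0.35, limma adjusted p = 0.92). They lay further apart under other processing. After median-ratio rescaling Plin5 ran from 23.6 to 45.8 TPM in MI vehicle and from 45.3 to 60.3 TPM in MI prednisone hearts. With a correction for transcript length and a replicate block the changes were -0.87 under vehicle (limma adjusted p = 0.074) and -0.46 under prednisone (limma adjusted p = 0.20). The direction was kept under every alternative tried, but the vehicle call was lost when any of 7 single libraries was left out (all 3 sham vehicle, sham prednisone replicates 1 and 3, MI vehicle replicates 2 and 3; adjusted p up to 0.11). It was also lost with no filter on low values (adjusted p = 0.052), with only the 6 libraries compared (adjusted p = 0.12) and for the most abundant transcript (-0.36, adjusted p = 0.11). The prednisone call was lost without sham prednisone replicate 1 or 3 or MI prednisone replicate 1 or 2 (adjusted p up to 0.10) and after median-ratio rescaling (-0.36, limma adjusted p = 0.20), where MI prednisone replicate 3, at 60.3 rescaled TPM, lay inside the sham range. It was also lost with a correction for transcript length (-0.46, limma adjusted p = 0.15) and for the most abundant transcript (-0.25, limma adjusted p = 0.16).

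Plin5 RNA was split over 2 transcripts, Plin5-201 and Plin5-202, which have the same length of coding sequence, 1389 bases, and start at 56117596 and 56117298 on chromosome 17. Both RefSeq promoter windows (build GRCm38.p6, minus strand, 250 bases before to 50 after each start) are shown because they are the upstream and downstream starts of the member that was called in both infarction comparisons, and the window of Plin2 because it shares a motif with them. Capitals mark AGGTCA, a motif of nuclear receptors such as PPAR, read on either strand, and in Plin2 also the E-box CACGTG.
Plin5 upstream start, chr17:56117499-56117798: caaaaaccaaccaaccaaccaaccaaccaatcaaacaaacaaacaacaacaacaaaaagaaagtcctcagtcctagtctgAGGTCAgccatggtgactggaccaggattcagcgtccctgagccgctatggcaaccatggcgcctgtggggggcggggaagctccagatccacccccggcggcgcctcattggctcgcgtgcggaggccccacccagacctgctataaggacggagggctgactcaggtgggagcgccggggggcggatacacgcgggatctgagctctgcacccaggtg
Plin5 downstream start, chr17:56117249-56117548: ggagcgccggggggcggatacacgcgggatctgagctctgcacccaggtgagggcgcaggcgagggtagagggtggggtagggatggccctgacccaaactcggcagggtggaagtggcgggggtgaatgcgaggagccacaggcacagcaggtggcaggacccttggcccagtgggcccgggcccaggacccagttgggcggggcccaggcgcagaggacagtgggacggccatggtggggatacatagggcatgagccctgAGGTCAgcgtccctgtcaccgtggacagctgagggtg
Plin2, chr4:86670010-86670309: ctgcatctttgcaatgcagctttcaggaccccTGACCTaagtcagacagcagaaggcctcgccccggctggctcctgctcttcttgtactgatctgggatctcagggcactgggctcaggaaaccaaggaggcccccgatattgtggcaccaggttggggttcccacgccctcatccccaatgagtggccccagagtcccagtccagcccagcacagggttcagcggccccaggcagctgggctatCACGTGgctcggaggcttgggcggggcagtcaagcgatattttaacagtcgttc

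The downstream RefSeq start is that of Plin5-202, and the upstream RefSeq start, 56117548, lies slightly downstream of the Plin5-201 start. AGGTCA stood 170 bases before the upstream Plin5 start and 14 bases after the downstream one, and 218 bases before the Plin2 start. AGGTCA occurs in 16.3% of all 32851 RefSeq promoter windows of this length, and among the 8 members with a window (11 windows) only Plin2 and Plin5 held it. CACGTG, present in 7.15% of all windows, was found in Plin2, Mgll and the upstream Lipe window. The glucocorticoid receptor motif AGAACA, in 19.0% of all windows, was found in 1 Mgll window. No member window held TTATGNAA (3.38% of all windows), the glucocorticoid receptor palindrome, which contains AGAACA (0.00913%), or 2 copies of AGGTCA with 1 base between (0.0396%). All motifs were searched on both strands, and a match describes letters only. Dgat1 and Dgat2 had no entry in the promoter table.

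Plin5-202, the transcript of the downstream start, measured 28.8, 29.5 and 30.3 TPM in sham vehicle and 30.9, 25.0 and 34.3 TPM in sham prednisone hearts. It measured 26.3, 16.4 and 19.3 TPM in MI vehicle and 12.7, 15.3 and 25.2 TPM in MI prednisone hearts. Plin5-202 fell between sham and MI under prednisone (-0.78, SE 0.24, limma adjusted p = 0.037 over 27769 transcripts), with MI prednisone replicate 3 inside the sham range. Plin5-201, from the upstream start, was higher in MI prednisone (29.8, 28.5 and 27.3 TPM) than in MI vehicle hearts (21.4, 25.3 and 19.7 TPM), without overlap, and rose by 0.36 (SE 0.12, limma adjusted p = 0.039). Of all transcripts, 15.6% were called lower between sham and MI under prednisone, and 5.92% higher with prednisone in MI. When 1 library was left out, the Plin5-202 call was lost without any single sham vehicle heart, sham prednisone replicate 1 or 3, or MI prednisone replicate 1 or 2 (adjusted p up to 0.14). The Plin5-201 call was kept only without MI vehicle replicate 2 or MI prednisone replicate 3 (adjusted p up to 0.12 in the other 10 fits). The Plin5-202 call was also lost after median-ratio rescaling (-0.68, adjusted p = 0.11). Plin5-202 made up 29.8% to 48.0% of Plin5 TPM in MI prednisone hearts and 39.3% to 55.1% in the other 9, which overlapped, and the difference between the transcripts was not tested.

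Plin2, the coat protein of droplets in most tissues, was higher in MI vehicle than in sham vehicle hearts in these samples without passing the test. It measured 45.1, 53.6 and 33.3 TPM in sham vehicle and 54.1, 71.2 and 77.0 TPM in MI vehicle hearts. The groups nearly touched but did not overlap, and the change was 0.61 (SE 0.21, limma adjusted p = 0.063). Under prednisone the groups overlapped, at 52.2, 42.5 and 54.5 TPM in sham and 44.9, 68.9 and 48.5 TPM in MI hearts, with a change of 0.10 (95% interval -0.36 to 0.56). After median-ratio rescaling the vehicle groups overlapped too, with MI vehicle replicate 3 at 46.6 rescaled TPM.

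The ratio of Plin2 to Plin5, chosen after its values were seen, separated the surgeries. It ran from 0.587 to 0.903 in the 6 sham hearts and from 0.923 to 1.98 in the 6 MI hearts. Plin5 held 28.5% to 32.2% of the summed TPM of the 4 perilipins in sham hearts and 17.4% to 28.9% in MI hearts. The summed level itself ran from 176 to 230 TPM in sham and from 155 to 224 TPM in MI hearts, which overlapped.

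Plin4, a perilipin of fat and muscle, had its lowest mean in MI prednisone hearts, at 19.6, 31.7 and 26.9 TPM, against 43.7, 39.6 and 41.4 TPM in sham prednisone hearts. The 2 groups did not overlap and the change was -0.68 (SE 0.25, limma adjusted p = 0.092). MI vehicle hearts were spread from 25.4 to 57.2 TPM (41.4, 25.4 and 57.2), sham vehicle hearts held 39.4, 46.4 and 35.8 TPM, and the prednisone difference in MI was -0.60 (SE 0.25, limma adjusted p = 0.082) and turned to 0.08 under a correction for transcript length. With mitochondrial rows removed both Plin4 changes were called, at -0.84 (limma adjusted p = 0.018) and -0.69 (limma adjusted p = 0.025). The more abundant transcript of the gene, Plin4-202, was lower in each MI prednisone heart (8.89, 14.3 and 12.2 TPM) than in the other 9 libraries (16.3 TPM or more) and fell in MI against sham under prednisone (-1.07, SE 0.34, limma adjusted p = 0.044). Of all transcripts, 16.6% were lower in the 3 MI prednisone libraries than in the other 9. Plin4-201 and Plin4-202 differ by 1 base in length (5755 and 5756 bases) and have equal coding length, so how reads were split between them is uncertain, and the Plin4-202 call held only in the 3 fits that left out an MI vehicle heart (adjusted p up to 0.16 in the other 9).

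Plin3, a perilipin that moves onto new droplets from the cytosol, was the steadiest member in TPM as deposited. After median-ratio rescaling it ran from 31.0 to 63.3 TPM, a wider range than that of Mgll, from 37.0 to 51.5 TPM. Sham prednisone hearts, at 51.8, 59.2 and 65.4 TPM, lay above sham vehicle hearts, at 41.1, 45.7 and 50.5 TPM. The difference of 0.35 (95% interval 0.11 to 0.60) did not pass after adjustment (limma adjusted p = 1.0). MI vehicle hearts held 48.7, 52.4 and 51.2 TPM and MI prednisone hearts 48.2, 48.9 and 54.0 TPM, and these overlapped.

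Of the lipases, Pnpla2 (chromosome 7, 141455198 to 141460743, plus strand) was lower in MI prednisone than in MI vehicle hearts. Its level was 203, 177 and 308 TPM in MI vehicle and 125, 177 and 161 TPM in MI prednisone hearts. Sham vehicle hearts held 186, 204 and 171 TPM, and sham prednisone hearts 166, 157 and 176 TPM. MI vehicle replicate 3 was the highest of the 12 and MI prednisone replicate 1 the lowest, and the 2 MI groups overlapped at 177 TPM. Pnpla2 fell by 0.54 (SE 0.19, limma adjusted p = 0.044), a fold of 0.687, while 34.9% of all genes were called lower in this comparison and the median gene moved by -0.41. After median-ratio rescaling the change was -0.08 (limma adjusted p = 0.64), and without MI vehicle replicate 3 it was -0.31 and no longer called. The call was also lost without any 1 of the 6 sham hearts or MI prednisone replicate 1 or 3 (adjusted p up to 0.16), with no filter (adjusted p = 0.085), without the trend (adjusted p = 0.055), with only the 6 libraries compared (adjusted p = 0.16) and with the length correction (-0.20, adjusted p = 0.27).

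Pnpla2-206, a transcript of 985 bases annotated as coding with an incomplete end, was at 3.25 TPM or less in MI prednisone hearts. It ends earlier than the coding transcript Pnpla2-202 and differs from it where exon 3 joins exon 4: its exon 4 starts 102 bases later, at position 141458107 in place of 141458005 on chromosome 7 (mm10, plus strand), which removes 34 codons in frame. The junction of each, from GENCODE M21, is shown because this segment separates the row that fell from one that was not called. Capitals mark the bases that Pnpla2-206 lacks.
Pnpla2-202: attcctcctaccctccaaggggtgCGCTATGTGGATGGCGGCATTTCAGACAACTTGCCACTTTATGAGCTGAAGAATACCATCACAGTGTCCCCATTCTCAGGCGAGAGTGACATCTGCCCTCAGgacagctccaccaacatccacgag
Pnpla2-206: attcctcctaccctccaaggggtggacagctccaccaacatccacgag

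Pnpla2-206 measured 33.3, 37.1 and 30.4 TPM in sham vehicle, 32.2, 24.6 and 35.7 TPM in sham prednisone and 38.2, 35.3 and 53.6 TPM in MI vehicle hearts. In MI prednisone hearts it measured 0.799, 0.614 and 3.25 TPM. All 3 MI prednisone libraries thus lay far below the other 9. Lower values in all 3 than in any of the other 9 were found for 16.6% of all transcripts. The row made up 15.6% to 20.3% of Pnpla2 TPM in the other 9 and 0.346% to 2.01% in MI prednisone hearts. Pnpla2-206 fell by 4.21 between MI vehicle and MI prednisone (SE 0.32, limma adjusted p = 2.2e-05), and 27.1% of all transcripts were called lower. The prednisone change in MI differed from that in sham by -4.07 (SE 0.45, limma adjusted p = 0.00056), beside 15.8% of all transcripts called lower, and all 12 fits that left out 1 library kept both calls.

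Pnpla2-202 held 48.7, 47.8 and 84.5 TPM in MI vehicle and 37.7, 53.8 and 52.7 TPM in MI prednisone hearts, and its change of -0.29 (95% interval -0.75 to 0.18) was not called. The most abundant row, Pnpla2-201, annotated for nonsense-mediated decay, held 107, 85.7 and 159 TPM against 73.5, 104 and 97.1 TPM (-0.32, limma adjusted p = 0.25). Pnpla2-204, another row with that annotation, lay between 0 and 2.47 TPM in the other 9 libraries and at 10.1, 15.0 and 2.85 TPM in MI prednisone hearts. It rose by 1.79 between the MI groups (SE 0.51, limma adjusted p = 0.021), and this call was lost without MI vehicle replicate 2 or MI prednisone replicate 1 or 2 (adjusted p up to 0.085). Higher values in all 3 MI prednisone libraries than in the other 9 were found for 5.39% of all transcripts. Summed without Pnpla2-206, Pnpla2 came to 165, 142 and 254 TPM in MI vehicle and 124, 177 and 158 TPM in MI prednisone hearts. These rows overlap in their exons, and their TPM rest on an estimated split of reads between them. What the MI prednisone libraries share beside the drug, such as an atrial marker sum of 4335 to 6173 TPM against 845 to 4106 TPM in the other 9, was not tested as a part of this result.

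**Figure D3:**
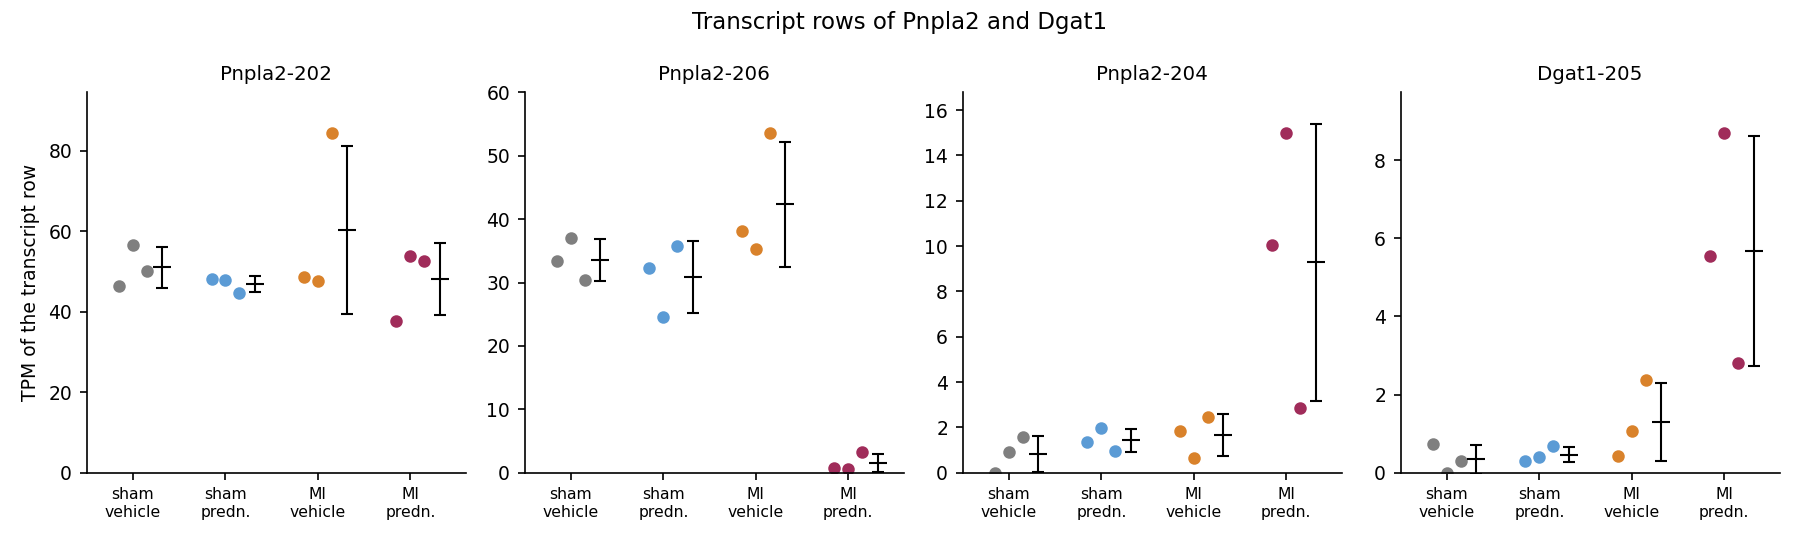
TPM of 4 transcript rows (vertical axes, starting at 0) in the 4 groups; points are mice and black bars the group mean ± SD. Pnpla2-206 is between 24.6 and 53.6 TPM in 9 libraries and at most 3.25 TPM in MI prednisone hearts, where Pnpla2-204 and Dgat1-205 are highest and Pnpla2-202 overlaps the other groups.

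G0s2, the ATGL inhibitor (chromosome 1, 193272161 to 193273217, minus strand), had its highest mean in MI prednisone hearts in these samples. It measured 40.0, 51.7 and 60.9 TPM in sham vehicle and 53.6, 47.5 and 63.5 TPM in sham prednisone hearts. It measured 50.9, 59.3 and 75.4 TPM in MI vehicle and 75.0, 88.5 and 65.5 TPM in MI prednisone hearts. Under prednisone the MI hearts lay above the sham hearts without overlap, by 0.47 (SE 0.19, limma adjusted p = 0.12). After median-ratio rescaling the same change was 0.57 (limma adjusted p = 0.019) and the change with prednisone in MI went from 0.31 to 0.76 (limma adjusted p = 0.0055), so both calls depend on the scaling.

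The ratio of G0s2 to Pnpla2 within a library does not depend on scaling. It was 0.602, 0.499 and 0.406 in MI prednisone hearts and between 0.214 and 0.362 in the other 9. With the Pnpla2-206 row left out of Pnpla2, the ratio was 0.414 to 0.605 in MI prednisone hearts. It was 0.261 to 0.454 in the other 9, and only MI prednisone replicate 3 lay inside that range. This version was chosen after the values were seen. After median-ratio rescaling G0s2 measured 84.1, 91.5 and 75.2 TPM in MI prednisone hearts. The other 9 lay between 45.0 and 69.7 rescaled TPM, while rescaled Pnpla2 overlapped. The ratio was not tested, nor was the part of either gene in it.

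Lipe and Mgll, summed over their rows, were not called in any comparison as deposited. Lipe ranged more than any other member, with 38.6, 43.6 and 19.8 TPM in sham vehicle, 26.4, 20.6 and 23.4 TPM in sham prednisone, 49.6, 16.9 and 95.0 TPM in MI vehicle and 22.8, 58.1 and 25.6 TPM in MI prednisone hearts. The lowest and the highest of the 12 were both MI vehicle hearts, and the groups overlapped in all 4 comparisons. Its change between MI vehicle and MI prednisone was -0.41, with a 95% interval from -1.59 to 0.78. Its most abundant row, Lipe-202, ranged from 8.23 to 66.8 TPM.

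Mgll was steadier, at 38.8, 48.6 and 36.2 TPM in sham vehicle, 46.6, 39.5 and 44.2 TPM in sham prednisone, 42.7, 42.0 and 68.2 TPM in MI vehicle and 41.2, 49.3 and 44.9 TPM in MI prednisone hearts. The highest heart was MI vehicle replicate 3, and no comparison separated its groups. The Mgll change with prednisone in MI was -0.14 as deposited (limma adjusted p = 0.56) and 0.31 after median-ratio rescaling (limma adjusted p = 0.031), so its direction depends on the scaling. With the length correction it was 0.43 (limma adjusted p = 0.015).

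**Figure D4:**
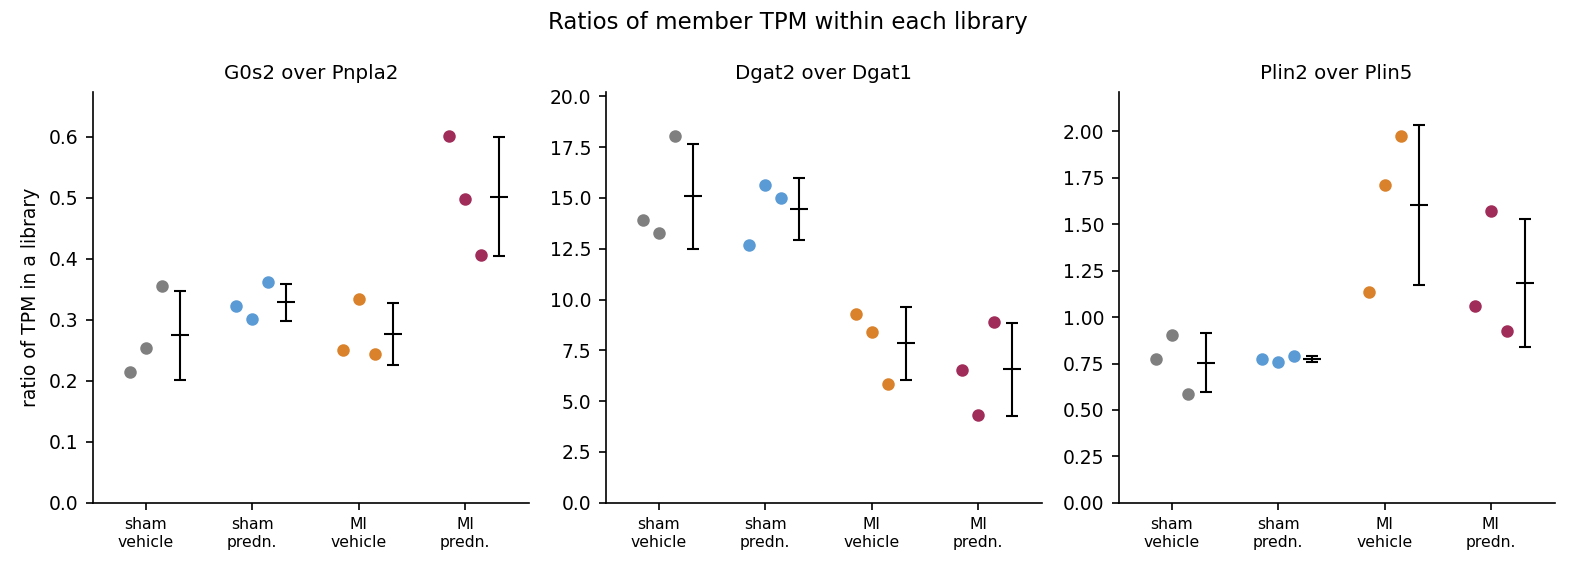
Ratios of TPM between 2 members within each library (vertical axes, starting at 0) in the 4 groups; points are mice and black bars the group mean ± SD. G0s2 over Pnpla2 is highest in the 3 MI prednisone hearts, and Dgat2 over Dgat1 and Plin2 over Plin5 each separate the 6 sham from the 6 MI hearts.

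Dgat1 (chromosome 15, 76502015 to 76511953, minus strand), which makes triglyceride mainly from fatty acids taken up from outside, was higher in MI hearts in these samples without passing the test as deposited. It measured 10.4, 11.9 and 8.33 TPM in sham vehicle and 9.91, 8.58 and 10.1 TPM in sham prednisone hearts. It measured 14.5, 11.2 and 28.0 TPM in MI vehicle and 16.1, 31.9 and 13.2 TPM in MI prednisone hearts. MI vehicle replicate 2, at 11.2 TPM, lay inside the sham range and the other 5 MI hearts above it. The change was 0.93 under prednisone (SE 0.34, limma adjusted p = 0.086), without overlap, and 0.67 under vehicle (SE 0.34, limma adjusted p = 0.15). The change under prednisone was called once libraries were rescaled by median ratio (1.03, adjusted p of 0.015 in limma) and with the length correction (0.84, limma adjusted p = 0.039).

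In MI prednisone hearts part of the Dgat1 level came from rows annotated as retained introns, which are not translated into the enzyme. Their summed level was 7.31, 18.4 and 4.43 TPM there and between 0.835 and 3.34 TPM in the other 9 libraries. Dgat1-205 alone rose by 1.54 between MI vehicle and MI prednisone (SE 0.38, limma adjusted p = 0.012) and by 2.10 between sham and MI under prednisone (SE 0.38, limma adjusted p = 0.0033), beside 6.75% of all transcripts called higher in the latter comparison. The former call was lost without MI prednisone replicate 2 (limma adjusted p = 0.051). The coding row Dgat1-201 held 11.4, 9.59 and 24.7 TPM in MI vehicle and 8.75, 12.4 and 8.79 TPM in MI prednisone hearts, and its change of -0.47 (95% interval -1.10 to 0.16) was not called. In sham prednisone hearts Dgat1-201 held 7.27, 6.90 and 7.58 TPM. Its change between sham and MI under prednisone, 0.40 (95% interval -0.23 to 1.02, limma adjusted p = 0.36), was not called either.

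Dgat2, which works largely on fatty acids made or recycled in the cell, measured 145, 158 and 150 TPM in sham vehicle and 126, 134 and 152 TPM in sham prednisone hearts. It measured 135, 93.8 and 164 TPM in MI vehicle and 105, 137 and 118 TPM in MI prednisone hearts. The groups overlapped in all 4 comparisons and no change was called as deposited. After median-ratio rescaling Dgat2 was lower in MI under vehicle (-0.68, limma adjusted p = 0.030), against -0.24 as deposited (limma adjusted p = 0.29), and it was called with the length correction as well (-0.68, limma adjusted p = 0.031). Dgat2 over Dgat1, a ratio chosen after its values were seen, ran from 12.7 to 18.1 in the 6 sham hearts and from 4.31 to 9.30 in the 6 MI hearts, without overlap.

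Of the 53 transcript rows of the members, 29 were tested. With prednisone in MI 3 were called higher (Plin5-201, Pnpla2-204 and Dgat1-205) and 5 lower, against 5.92% and 27.1% of all transcripts. Beside Pnpla2-206 and Plin4-202 (-0.96, limma adjusted p = 0.0498), the lower ones were Plin2-207 (-1.62, limma adjusted p = 0.034), Lipe-201 (-0.77, limma adjusted p = 0.0498) and Mgll-207 (-0.84, limma adjusted p = 0.028). These last 3 rows were at 3.89 TPM or less in all libraries, and kept the call in 8, 2 and 9 of the 12 fits with 1 library left out. Median-ratio rescaling removed all 3 calls (adjusted p of 0.081 to 0.19), and that of Plin4-202 in the same comparison as well (-0.52, limma adjusted p = 0.17). Between sham and MI under prednisone 2 were called higher and 3 lower, against 6.75% and 15.6%. Under vehicle 0 were called, against 2.66% higher and 0.184% lower, with 5 at an unadjusted p under 0.05 in limma. With prednisone in sham hearts 0 were called, against 0.0288% and 0.0252%, with 1 at an unadjusted p under 0.05.

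The spread of some members moved with markers of fat cells, which also express Lipe, Plin4, Pnpla2, Mgll and both Dgat genes. The 8 adipocyte markers (Adipoq, Plin1, Cidec, Retn, Cfd, Lep, Adig and Pck1) summed to 287, 402 and 22.1 TPM in sham vehicle and 153, 149 and 170 TPM in sham prednisone hearts. They summed to 728, 18.0 and 1730 TPM in MI vehicle and 324, 973 and 293 TPM in MI prednisone hearts. None of the 8 was at 0 in any library, and MI vehicle replicates 2 and 3 were the lowest and the highest of the 12.

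The relation of each member with this marker sum was tested by permuting all 12 libraries freely across groups. Differences between groups therefore enter the p values. On log2 scales, Lipe followed this sum over the 12 libraries (Pearson's r = 0.86, permutation p = 2.0e-05, the smallest that the permutations can give, adjusted 0.00020 over 10 members; Spearman's rho = 0.90, permutation p = 0.00032, adjusted 0.0032). Dgat1 did so too (r = 0.73, permutation p = 0.0017, adjusted 0.0083; rho = 0.85, permutation p = 0.00086, adjusted 0.0043). For Mgll r was 0.67 (permutation p = 0.0082, adjusted 0.027) and rho 0.66 (permutation p = 0.022, adjusted 0.074). All of these values used TPM as deposited. There MI vehicle replicate 3, with a size factor of 1.65, held the highest marker sum and Mgll level. Its Mgll level was 68.2 TPM as deposited and 41.3 TPM after median-ratio rescaling, where the other libraries ran from 37.0 to 51.5 TPM. The relations were not computed after rescaling. Without the 2 libraries farthest from the median sum (sham vehicle replicate 3 and MI vehicle replicate 2) r was 0.93 for Lipe, 0.90 for Dgat1 and 0.71 for Mgll. The other 7 members did not pass over the 12 libraries (adjusted permutation p of 0.31 or more for r and 0.19 or more for rho). Of these, Plin5 went from r = -0.26 to -0.81 and Plin2 from 0.41 to 0.80 without those 2 libraries, so their r depends on which libraries are included.

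Measured as deviations from group means over the same 12 libraries, r with the sum was 0.94 for Lipe, 0.85 for Plin4, 0.79 for Dgat2 and 0.74 for Dgat1. It was 0.73 for Pnpla2, 0.68 for Mgll, 0.39 for Plin2, 0.02 for Plin5, 0.0042 for G0s2 and -0.39 for Plin3. With the log2 marker sum as a covariate, an alternative added after the data were seen, Plin4 was called lower with prednisone in MI (-0.69, limma adjusted p = 0.0059) and Lipe as well (-0.63, limma adjusted p = 0.030). Plin5 was then at -0.44 in MI under vehicle (limma adjusted p = 0.0505) and -0.47 under prednisone (limma adjusted p = 0.035), and Pnpla2 stayed called with prednisone in MI (-0.60). What part of the members' differences between groups came with these cells was not tested.

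**Figure D5:**
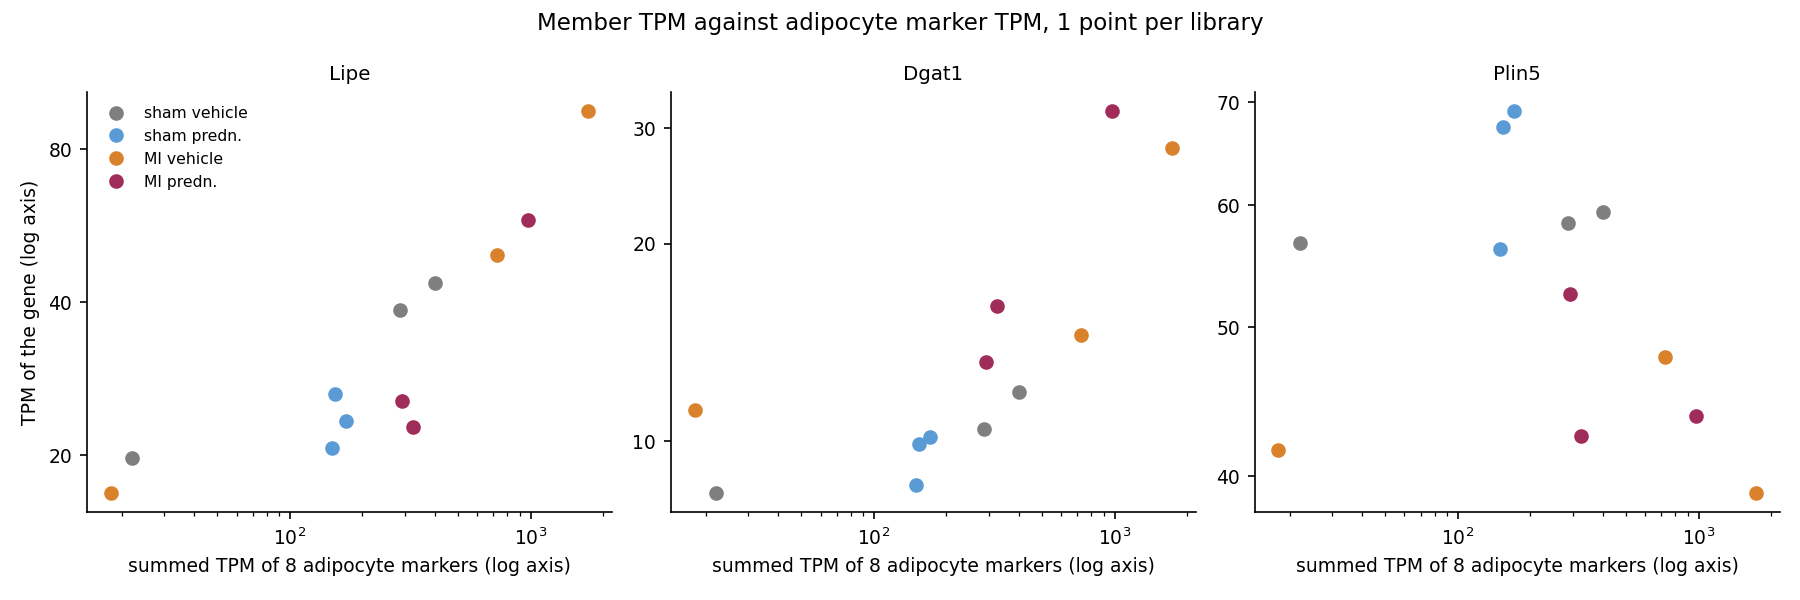
TPM of Lipe, Dgat1 and Plin5 (vertical log axes) against the summed TPM of 8 adipocyte markers (horizontal log axes), 1 point per library, coloured by group. Lipe and Dgat1 climb with the marker sum from 18.0 to 1730 TPM, and every sham point of Plin5 lies above every MI point.

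Over the 12 libraries, after median-ratio rescaling, the 3 genes most like Plin5 among the 8115 others with a mean of 5 TPM or more were Yipf7 (r = 0.99), Hrc (r = 0.99), a calcium-binding protein of the sarcoplasmic reticulum, and Magix (r = 0.98). Those most like Pnpla2 were Fam214a (r = 0.86), Epas1 (r = 0.86), a hypoxia-inducible transcription factor, and Rnf166 (r = 0.84). Among the members themselves the closest pair was Plin3 and Plin5 (r = 0.79), and the most opposed was Plin3 and Lipe (r = -0.58). These libraries share group and scaling, and the values are descriptions.

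Other genes of droplet and glycerolipid metabolism were taken from a list of 45 genes, of which 43 were tested. Between sham and MI under vehicle 4 were called higher and 1 lower, beside 15.1% and 0.904% of all genes. The higher ones were Hilpda, an ATGL inhibitor induced by hypoxia (0.82), Agpat4 (0.79), the lysosomal lipase Lipa (1.00) and the acyl-CoA synthetase Acsl4 (0.70). The 6 macrophage markers summed to 176 to 270 TPM in sham vehicle, 431 to 1063 TPM in MI vehicle and 201 to 395 TPM in MI prednisone hearts, and their part in these changes, or in those of Lipa, Acsl4 and Soat1 with prednisone, was not tested. The lower one was Fitm1, a muscle protein of droplet formation (-0.55). Under prednisone 2 were called higher in MI, Cidea (1.57), a brown fat droplet protein, and Aup1 (0.73), and 8 lower, beside 2.73% and 14.1%. The brown fat marker Ucp1 measured 12.4, 88.7 and 27.9 TPM in MI prednisone and 0.458 to 1.88 TPM in sham prednisone hearts, and its part in the Cidea change was not tested. The 5 calls under vehicle and those of Cidea, Aup1 and Agpat3 were each lost in at least 1 fit that left out a library (adjusted p up to 0.15). Median-ratio rescaling removed the vehicle calls of Hilpda, Agpat4 and Acsl4 (adjusted p of 0.069 to 0.077).

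Of 11 tested genes for the steps before Dgat1 and Dgat2 (the Gpat, Agpat and Lpin families with Gpam), 4 were called lower and 0 higher in MI under prednisone. Of all genes 14.1% were called lower and 2.73% higher. Agpat2 (1.01, limma adjusted p = 0.084) and Agpat4 (0.47, limma adjusted p = 0.13) lay higher without overlap, beside 12.9% of all genes, and were not called. Gpat4 lay lower without overlap (10.2 to 12.3 against 12.4 to 14.6 TPM), beside 32.2% of all genes, and was not called. Gpam, the mitochondrial enzyme that starts glycerolipid synthesis, measured 7.06, 5.77 and 14.5 TPM in MI prednisone hearts and between 37.8 and 54.8 TPM in the other 9, and 18.9% of all genes were lower in those 3 hearts than in any other. It fell by 2.16 against sham prednisone (SE 0.25, limma adjusted p = 0.0012) and by 2.20 against MI vehicle (SE 0.25, limma adjusted p = 0.00056). The other called ones, Gpat3 (-0.73), Agpat3 (-0.63) and the phosphatidate phosphatase Lpin1 (-0.84), fell as well between sham and MI under prednisone, as did the acyl-CoA synthetase Acsl1 (-1.04), lipoprotein lipase Lpl (-0.65), Fitm2 (-0.58), a protein of droplet formation, and Rab18 (-0.68), a GTPase found on droplets. After median-ratio rescaling Fitm2 (-0.47, adjusted p = 0.057) and Lpl (-0.54, adjusted p = 0.077) lost this call. With the length correction Lpin1 (-0.44, limma adjusted p = 0.090), Lpl (-0.39, limma adjusted p = 0.20) and Fitm2 (-0.29, limma adjusted p = 0.20) lost it.

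With prednisone in MI 0 of the 43 were called higher and 11 lower, beside 34.9% of all genes. Besides Gpam these were Gpat3 (-0.72), Lpin1 (-0.49), Lipa (-1.24), Lpl (-0.34), Acsl1 (-0.79), Acsl4 (-0.88), Hsd17b11 (-0.69), Rab18 (-0.99), Faf2 (-0.73) and Soat1 (-1.71). Of these 11, Lpl, Lpin1 and Faf2 lost their calls in some of the 12 fits that left out 1 library (10, 4 and 3 fits), and the other 8 did not. After median-ratio rescaling 4 of the 11 kept the call, Gpam (-1.76), Lipa (-0.80), Acsl4 (-0.52) and Soat1 (-1.35). The other 7 lost it, at -0.54 for Rab18 (limma adjusted p = 0.052), -0.33 for Acsl1 (0.22), -0.32 for Faf2 (0.080), -0.31 for Gpat3 (0.19), -0.26 for Hsd17b11 (0.13) and -0.05 for Lpin1 (0.87), while Lpl turned to 0.12. In sham hearts prednisone called 0 of the 43, with 1 at an unadjusted p under 0.05.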

How the data were processed

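RNA of 12 mouse hearts, 3 per group and each from a separate mouse per the labels, was read as a stranded mRNA library. The authors deposited TPM (length-scaled abundance) per transcript, for 105129 transcript rows and 33641 symbols, and each column sums to 1000000. Trimmomatic, HISAT2, kallisto and mm10 are named in the submitters' processing notes; their versions and the annotation release are not given in the sources used here. Of the transcript identifiers 94.7% were in GENCODE M21, and 97.9% of those had the same symbol there.

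TPM were summed by symbol, and the 13158 genes that reached 1 TPM in 3 or more of the 12 libraries were tested with limma 3.58.1 (R 4.3.3, trended variance) on log2(TPM + 1), with a mean per group and Benjamini-Hochberg adjustment over all genes per comparison. A fold on this scale understates the change of low genes. Calls needed an adjusted p below 0.05. Transcript rows were tested alike. Other values were computed in Python 3.11.15 with pandas 2.3.3 and SciPy 1.17.1; correlations used 100000 resamples. TPM hold no depth, so no counting error can be given. The limma test was checked on simulated data with independent normal noise for each gene. That simulation held no shifted library and no length bias, so it could not check calls that depend on scaling. Sequences came from RefSeq (GRCm38.p6) and GENCODE M21.

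All 10 members are described, as is every gene of the pathway list that was called in one of the 4 pairwise comparisons. The genes most like a member were the 3 with the highest r after median-ratio rescaling, at a mean of 5 TPM or more. The members, lists and tests were chosen with earlier results of these data known. Alternatives were median-ratio rescaling, no filter, limma without the trend, a pseudocount of 0.1, the most abundant transcript, a replicate block, only the 6 libraries compared, leaving out each mouse, removing mitochondrial rows, and a length correction (loess span 0.5) with and without the block. A comparison of the members' proteins was planned and not analysed here.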

Additional observations from a re-analysis of the deposited data

Results flagged for a closer look

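The effect of prednisone differed between infarcted and sham hearts, by limma's test of the difference itself, for 1 member transcript and 7 genes of the pathway list. For Pnpla2-206 the difference was -4.0747 on the log2 scale (limma adjusted p = 0.00056). For Gpam it was -1.9459 (limma adjusted p = 0.0080), and for Lipa -1.2303 (limma adjusted p = 0.029). For Rab18 it was -1.0601 (limma adjusted p = 0.0097), for Acsl4 -0.9664 (limma adjusted p = 0.039) and for Lpin1 -0.7634 (limma adjusted p = 0.035). For Acsl1 it was -0.7313 (limma adjusted p = 0.041) and for Lpl -0.5414 (limma adjusted p = 0.039). Over all genes 20.7% were called lower in this test, with a median of -0.48. Gpam, Rab18 and Pnpla2-206 kept the call in all 12 fits that left out 1 library. The call was kept in 5 of 12 for Lpin1, 4 of 12 for Lipa, 3 of 12 for Acsl4 and Lpl, and 2 of 12 for Acsl1. After median-ratio rescaling Pnpla2-206 and Lipa (-0.71, limma adjusted p = 0.037) kept the call. Gpam (-1.42, limma adjusted p = 0.058), Rab18 (-0.53, limma adjusted p = 0.22), Acsl4 (-0.54, limma adjusted p = 0.054), Acsl1 (-0.18, limma adjusted p = 0.70), Lpin1 (-0.24, limma adjusted p = 0.59) and Lpl, near 0, lost it. With the correction for transcript length 0 of the 37 pathway genes with a length were called in limma (Gpam -1.26, adjusted p = 0.12).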

How the results depend on the processing

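The 10 members gave 1 call between sham and MI under vehicle, 1 under prednisone, 1 for prednisone in MI and 0 for the other comparisons. For MI under vehicle the count was 2 with median-ratio rescaling, with and without MI vehicle replicate 3, and with the length correction. It was 0 with no filter, the most abundant transcript, the replicate block, only the 6 libraries, the length correction with replicate block, and the adipocyte covariate. For MI under prednisone it was 2 with median-ratio rescaling, only the 6 libraries, mitochondrial rows removed and the adipocyte covariate, 4 with rescaling and MI vehicle replicate 3 left out, and 0 with the length correction with replicate block. For prednisone in MI it was 2 with median-ratio rescaling (also without MI vehicle replicate 3), the most abundant transcript and mitochondrial rows removed, 3 with the adipocyte covariate, and 0 with no filter, no trend, the replicate block and only the 6 libraries. For the difference between prednisone effects it was 1 with the adipocyte covariate (Plin4). An equal count can hold other members: with the length correction MI under prednisone had 1 call, Dgat1 in place of Plin5, and prednisone in MI 1, Mgll in place of Pnpla2. Leaving out each mouse gave 0 to 2 calls for MI under vehicle, 0 to 3 under prednisone, 0 to 2 for prednisone in MI, 0 to 1 for the difference and 0 in sham. The adipocyte covariate, rescaling without MI vehicle replicate 3 and the transcript alternatives were added after seeing the data. Median-ratio rescaling turned Lpl with prednisone in MI to 0.1236, and the differences between prednisone effects of Lpl to 0.0088 and of Plin3 to 0.1734. The length correction, with and without replicate block, turned prednisone in MI to 0.1875 for Lpin1, 0.2499 for Lpl and 0.0826 for Plin4, and the difference to 0.0242 for Lpin1 and 0.1406 for Lpl. Of 50 member changes 17 changed sign with median-ratio rescaling; the cause was not tested. Over all genes the calls ran from 2 to 5631 for MI under vehicle (2100 as reported), 942 to 6204 under prednisone (2213), 808 to 9169 for prednisone in MI (4917), 4 to 24 in sham (15) and 110 to 5185 for the difference (2797). No likeness by replicate number was seen: same-numbered libraries had a mean r of -0.08 between their deviations from group means (-0.58 to 0.28 over 18 pairs), against 0.04 for others. Such a mean cannot show whether the mice were paired or handled together by number. With the replicate block Plin5 under vehicle had a limma adjusted p of 0.058 and Pnpla2 with prednisone in MI one of 0.056, and Plin5-201 with prednisone in MI one of 0.051. For the pathway genes the difference between prednisone effects gave 7 calls as reported, 3 with median-ratio rescaling and 0 of 37 with the length correction. Of the 3 with rescaling, only Lipa was among the 7. Depth cannot be read from TPM, so what it limits is unknown.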
